A study of Homo sapiens with 21 samples.

Results

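The genes examined were the 4 TEAD transcription factors (TEAD1, TEAD2, TEAD3 and TEAD4), the co-activators YAP1 and WWTR1 (also called TAZ), the TEAD cofactor VGLL3, and 3 genes that YAP1 and TEAD are known to activate, CYR61, CTGF and AMOTL2. Their regions of open chromatin were all sites to which the deposited annotation gave one of these 10 names as the nearest gene, and 211 of 367900 consensus sites met this rule. The assay was ATAC-seq, which counts where the transposase Tn5 can insert into open DNA, and the cells were SK-N-BE(2), an established line from a human neuroblastoma. The 21 libraries formed 7 groups of 3, described as biological triplicates. All cells received lentivirus and were collected 72 h later. The groups were Control, shARID1A.2 and shARID1A.4 (short hairpin RNAs, shRNAs, against ARID1A), shARID1B.2 and shARID1B.3 (against ARID1B), and the combinations shARID1A/B.2.3 and shARID1A/B.4.2, which silenced both genes. ARID1A and ARID1B proteins replace each other in BAF, a complex that moves nucleosomes with the energy of ATP. The study's methods use a shRNA that silences no gene as the control, and the labels name the group only as Control. Which shRNAs a combination carried was not stated in the labels. All groups came from 1 cell line, and ATAC-seq does not measure how far either gene was silenced.

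TEAD proteins bind DNA but need a partner to activate transcription. YAP1 and WWTR1 enter the nucleus and join them when the Hippo kinase cascade is inactive, as in cells that are spread, stretched or growing, and VGLL proteins bind an overlapping surface of TEAD. CTGF and CYR61 encode secreted matrix proteins and AMOTL2 encodes a junction-associated protein that holds YAP1 outside the nucleus, and all 3 are classical readouts of YAP1 and TEAD activity. TEAD factors act largely through distal enhancers, which BAF remodellers help to keep open. In neuroblastoma, cells of the mesenchymal state are known for higher YAP1 and TEAD activity than adrenergic cells.

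Libraries held 16140029 to 44472230 reads in consensus sites. The replicates of a group differed by more than counting noise, and 2 libraries stood apart from their groups, shARID1A/B.2.3 replicate 2 and Control replicate 2. Promoter sites held 19.98% to 20.58% of the reads in Control libraries, 20.92% to 24.14% in single-silencing libraries and 23.37% to 25.06% in combination libraries, and the part of this shift in the results was not tested beyond the scaling on promoter sites given with them. Sites next to the start of adrenergic neuroblastoma genes were open in Control, from 2.43 at TH (in CPM, the reads of a site scaled to a fixed total of reads in all sites) to 43.9 CPM at HAND2, and so were those of the mesenchymal markers, from 12.2 CPM at PRRX1 to 52.7 CPM at VIM. Markers of blood, endothelial and epithelial cells lay between 0.949 CPM at PECAM1 and 6.62 CPM at EPCAM, and no marker was at 0. The marker sites differ in length and in distance from the start, so that each level describes its own site. In bulk libraries, fewer cells with an open site and less access per cell cannot be told apart.

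The sites comprised 47 named for YAP1, 39 for VGLL3, 31 each for CTGF and TEAD1, 26 for TEAD4, 20 for WWTR1, 6 for AMOTL2, 5 each for TEAD3 and CYR61, and 1 for TEAD2. By annotation, 116 were intronic, 80 intergenic, 8 exonic, 6 at a promoter and 1 at a transcription end. Only 9 lay within 1000 bases of a transcription start site (TSS), 1 for each gene other than TEAD2. The filter on low counts kept 206 sites and removed 3 of TEAD4, 1 of VGLL3 and 1 of CTGF. Mean accessibility ranged from 0.230 to 34.1 CPM with a median of 1.09 CPM. Lengths of the 211 sites differed (median 880 bases), so that their changes were compared between groups at 1 site.

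The sequences of the sites on which the results turned are given first. The letters GGAATG, which TEAD proteins recognise (CATTCC on the other strand), were searched on both strands, together with TGANTCA for AP-1, a frequent partner at the same enhancers, and with the E-box CANNTG, which most sites hold and which was not marked. From each of 6 intronic sites of TEAD1 and WWTR1, the 200 bases with the most TEAD and AP-1 matches (the centre where there was none) are printed on the plus strand of GRCh38, named by the distance of the site from the TSS. Capitals mark matches of the TEAD and AP-1 letters. TEAD1 +110289, TEAD1 +91240 and WWTR1 +91456 lost accessibility with both combinations. The others fell with shARID1A/B.2.3 and differed between the combinations.
TEAD1 +110289, chr11:12784611-12784810: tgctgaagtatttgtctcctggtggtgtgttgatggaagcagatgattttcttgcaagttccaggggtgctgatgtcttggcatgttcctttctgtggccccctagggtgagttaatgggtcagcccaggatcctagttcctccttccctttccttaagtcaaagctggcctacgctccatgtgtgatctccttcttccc
TEAD1 +91240, chr11:12764720-12764919: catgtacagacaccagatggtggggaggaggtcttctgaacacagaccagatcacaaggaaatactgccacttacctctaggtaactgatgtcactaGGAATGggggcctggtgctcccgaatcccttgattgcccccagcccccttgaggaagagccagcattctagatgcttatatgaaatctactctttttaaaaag
TEAD1 +50084, chr11:12723947-12724146: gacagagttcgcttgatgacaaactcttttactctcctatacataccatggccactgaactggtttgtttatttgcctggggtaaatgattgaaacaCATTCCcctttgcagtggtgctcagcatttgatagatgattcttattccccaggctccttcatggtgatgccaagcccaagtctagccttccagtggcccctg
WWTR1 +91456, chr3:149567108-149567307: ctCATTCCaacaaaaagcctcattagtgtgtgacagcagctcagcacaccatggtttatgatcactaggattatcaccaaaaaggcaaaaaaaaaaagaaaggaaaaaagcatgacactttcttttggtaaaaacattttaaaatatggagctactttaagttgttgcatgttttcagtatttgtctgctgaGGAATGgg
WWTR1 +82072, chr3:149575567-149575766: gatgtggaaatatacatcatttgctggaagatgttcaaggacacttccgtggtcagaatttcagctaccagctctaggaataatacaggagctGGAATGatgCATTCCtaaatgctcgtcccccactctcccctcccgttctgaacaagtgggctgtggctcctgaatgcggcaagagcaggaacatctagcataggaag
TEAD1 +125761, chr11:12800514-12800713: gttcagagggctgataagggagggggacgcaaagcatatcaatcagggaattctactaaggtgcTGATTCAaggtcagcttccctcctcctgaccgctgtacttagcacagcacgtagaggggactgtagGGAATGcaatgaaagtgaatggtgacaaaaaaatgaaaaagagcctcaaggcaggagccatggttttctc

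The whole WWTR1 sites held 4 matches of GGAATG at +91456 and 3 at +82072, and the TEAD1 site at +110289, which fell most, held none. Matches over whole sites, which differ in length, have no background here, and the shares below are for centre windows only. In the 300 bases at the centre of each site, GGAATG occurred in 16.9% of all consensus sites and in 38 of the 211 sites (18.0%). The share was 25.8% for TEAD1, 30.8% for TEAD4 and 33.3% for the 6 sites of AMOTL2. It lay below that of all consensus sites for YAP1 (14.9%), WWTR1, VGLL3 (12.8%) and CTGF (16.1%). No site of TEAD2, TEAD3 or CYR61 held the letters in this window. AP-1 letters occurred in 10.9% of all sites and 9.48% of the 211, and E-boxes in 82.0% and 79.6%. Of the 15 sites closed by combined silencing, 1 held GGAATG in this window (6.67%) and 3 held AP-1 letters (20.0%), beside 17.9% and 14.3% over all closed sites of the genome. A match is a run of letters and not evidence of binding.

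CTGF and YAP1 carry the same letters shortly before their start. RefSeq promoters (GRCh38.p14) were found for 7 of the 10 genes, and GGAATG was absent from those of TEAD2, TEAD3, WWTR1 and VGLL3 and present in 1 of 2 promoters of AMOTL2. It occurs in 14% of 35116 RefSeq promoters of 300 bases. The 250 bases before the start are printed in the direction of transcription, with GGAATG in capitals.
CTGF upstream, chr6:131951373-131951622, minus strand: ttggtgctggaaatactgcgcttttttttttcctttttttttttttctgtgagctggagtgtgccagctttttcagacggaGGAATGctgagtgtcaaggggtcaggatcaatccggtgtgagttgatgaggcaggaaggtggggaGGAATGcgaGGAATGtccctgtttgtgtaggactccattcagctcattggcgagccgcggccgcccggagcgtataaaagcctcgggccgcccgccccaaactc
YAP1 upstream, chr11:102110197-102110446, plus strand: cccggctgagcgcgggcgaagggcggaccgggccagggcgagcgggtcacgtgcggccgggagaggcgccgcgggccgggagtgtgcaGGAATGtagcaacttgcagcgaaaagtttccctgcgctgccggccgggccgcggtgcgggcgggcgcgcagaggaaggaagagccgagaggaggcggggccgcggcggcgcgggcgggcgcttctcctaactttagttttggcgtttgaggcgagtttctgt

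The CTGF stretch held 3 matches, starting 169, 104 and 95 bases before the TSS, and the nearer 2 lay inside the accessible site at the CTGF start. The YAP1 stretch held 1, starting 162 bases before the TSS and inside the accessible site. Neither start site was called after combined silencing with the main scaling. Both passed the threshold as lower under other scalings, given below with each gene.

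The central comparison asked how accessibility changed when both subunits were silenced, with the combinations averaged against Control. A site was called at a false discovery rate (FDR) under 0.01 by the edgeR quasi-likelihood test over 357029 sites. Combined silencing closed 15 of the 206 tested sites (7.28%) and opened 3 (1.46%). Over all tested sites of the genome, 10.3% closed and 3.43% opened, so that both shares lay below the background. This holds for sites chosen by name. Sites with other names inside the gene bodies of TEAD1 and WWTR1 closed at shares above the background, given below. TEAD1 held 9 of the 15 closed sites, YAP1 held 2, and TEAD3, TEAD4, WWTR1 and CYR61 held 1 each. The opened sites were the TEAD1 start, a distal CTGF site and a site upstream of CYR61. No site of VGLL3, AMOTL2 or TEAD2 was called by edgeR or DESeq2, with 5, 1 and 0 sites at an unadjusted p under 0.05. The median log2 change was 0.09 over the 206 sites and 0.03 over all tested sites.

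**Figure D1:**
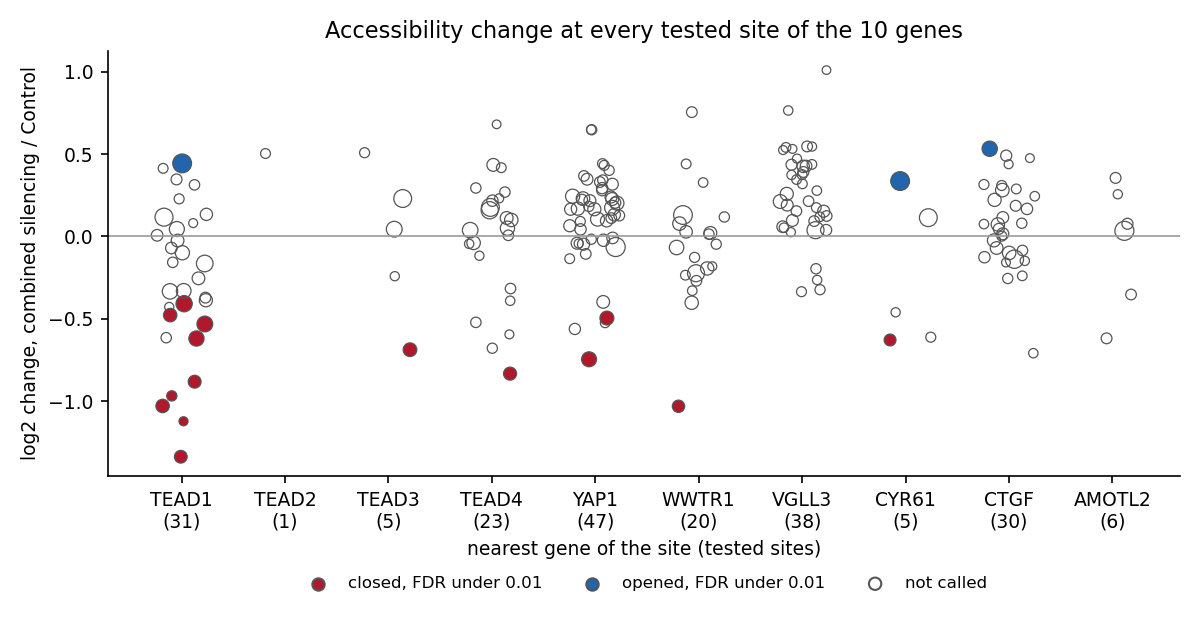
Log2 change of accessibility after combined silencing (y axis, combinations averaged over Control) for the 206 tested sites, grouped by nearest gene with the number of tested sites below each name. Each circle is a site, larger for a higher mean CPM, and filled circles passed an FDR of 0.01. TEAD1 holds 9 of the 15 closed sites, and VGLL3 has no filled circle.

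The shares varied with level and position. Of 89 sites under 1 CPM, 2 closed (background 3.77% closed and 0.553% opened), and of 92 sites from 1 to 5 CPM, 9 closed (background 14.1% closed and 2.22% opened). Of 25 sites of 5 CPM or more, 4 closed and 3 opened (background 26.7% and 23.3%). Among the 9 start sites, 1 opened and 0 closed (0 lower at an unadjusted p under 0.05 and 0 by DESeq2), where 31.8% of all such sites opened and 3.72% closed. All 15 closed sites lay further than 1000 bases from a TSS, among 197 tested there (background 10.6% closed and 2% opened). The split between directions depended on the scaling. When libraries were scaled on promoter sites, the median change of all sites fell from 0.03 to -0.20 and the calls became 30 closed and 1 opened of the 206, beside 15.9% closed and 0.729% opened over all tested sites.

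TEAD1 lost accessibility at several sites of its transcribed region while its start opened. Of its 31 sites, 9 closed (29.0%, background 10.3%) and 1 opened (3.23%, background 3.43%), and the median log2 change was -0.25. The TEAD1 sites had a median of 2.46 CPM, above the 1.09 CPM of all 211 sites, and the background closed share from 1 to 5 CPM was 14.1%. Whether the TEAD1 share exceeds that of sites of like level was not tested. The start site (chr11:12673800-12675343, exon 1 of 13) measured 25.8, 22.8 and 24.2 CPM in Control (replicates 1, 2 and 3), 33.2, 33.1 and 33.3 CPM in shARID1A/B.2.3 libraries, and 32.6, 32.6 and 33.1 CPM in shARID1A/B.4.2 libraries. All 6 combination libraries lay above all Control libraries, and the log2 change was 0.44 ± 0.08 (SE, FDR 6.1e-06). It remained called under promoter scaling in the averaged comparison (log2 0.21, FDR 0.0080), but not for shARID1A/B.4.2 alone (FDR 0.29, and 0.097 with offsets that follow abundance).

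The largest fall among all 206 sites was in TEAD1 intron 3 of 12, 110289 bases from the start (chr11:12784001-12785421). It measured 4.67, 3.53 and 4.21 CPM in Control, 2.36, 1.51 and 1.54 CPM in shARID1A/B.2.3 libraries, and 1.43, 1.70 and 1.30 CPM in shARID1A/B.4.2 libraries. No combination library reached the lowest Control library, and the log2 change was -1.34 ± 0.15 (FDR 9.0e-13). The same site fell with the single shRNAs averaged per gene. The fall was 0.86 ± 0.14 on the log2 scale for ARID1A (FDR 2.1e-06) and 0.68 ± 0.14 for ARID1B (FDR 0.00017). The site was lower in the combinations than in the 4 single-silencing groups, by 0.57 ± 0.12 (FDR 0.00016). The ARID1B shRNAs differed from each other here, with shARID1B.3 the higher. That call was lost without replicate 1 of shARID1B.2 or of shARID1B.3 (FDR 0.016 and 0.010) and under promoter scaling (FDR 0.012).

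A second site in intron 3 (chr11:12764243-12767082, 91240 bases from the start) also closed with both combinations. It measured 5.73, 4.36 and 4.21 CPM in Control, 2.23, 1.84 and 2.15 CPM in shARID1A/B.2.3 libraries, and 2.78, 2.53 and 2.55 CPM in shARID1A/B.4.2 libraries. The groups did not overlap, and the log2 change was -1.03 ± 0.13 (FDR 3.9e-10). ARID1A silencing gave -0.65 ± 0.13 (FDR 0.00011), a call that was lost without Control replicate 1 (FDR 0.016), and ARID1B silencing gave -0.36 ± 0.13 (FDR 0.057).

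Nearer to the start, the combinations differed at 3 called sites, those at 6687, 18632 and 50084 bases. The site 6687 bases from the start (chr11:12680317-12681902) measured 9.62, 9.21 and 9.94 CPM in Control, 5.61, 4.04 and 5.85 CPM in shARID1A/B.2.3 libraries, and 9.14, 8.47 and 8.44 CPM in shARID1A/B.4.2 libraries. The shARID1A/B.2.3 libraries lay well below Control and the shARID1A/B.4.2 libraries just below it, with log2 changes of -0.92 ± 0.13 (FDR 4.7e-09) and -0.14 ± 0.12 (FDR 0.52), and the difference between the combinations was -0.78 ± 0.13 (FDR 3.3e-06). The site at 57783 bases fell by 1.18 ± 0.18 with shARID1A/B.2.3 (FDR 6.5e-08) and gave -0.58 ± 0.18 with shARID1A/B.4.2 (FDR 0.013), a difference of -0.605 ± 0.19 that did not pass the threshold (FDR 0.032). The site at 72459 bases fell with both, by 0.65 ± 0.13 and 0.59 ± 0.13 (FDR 3.8e-05 and 0.00041), and the latter call was lost without shARID1A/B.4.2 replicate 2 (FDR 0.015).

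The remaining closed TEAD1 sites rested on fewer libraries. The site at 50084 bases (chr11:12723941-12725071) changed by -0.41 ± 0.10 in the averaged comparison (FDR 0.00088), a call lost without Control replicate 1 (FDR 0.025), and the site at 21300 bases by -0.97 ± 0.24 (FDR 0.0012), also lost without Control replicate 1 (FDR 0.012). The call at 103323 bases (-0.48 ± 0.13, FDR 0.0042) was lost without Control replicate 1 or 3, shARID1A/B.2.3 replicate 2 or shARID1A/B.4.2 replicate 3 (FDR 0.014 to 0.090), with offsets that follow abundance (FDR 0.038), with only the compared groups (FDR 0.014) and by DESeq2 (FDR 0.017). The call at 61313 bases (-1.12 ± 0.31, FDR 0.0041), at a mean of 0.402 CPM, was lost without Control replicate 2 or 3, shARID1A/B.2.3 replicate 2 or shARID1A/B.4.2 replicate 3 (FDR 0.010 to 0.059) and by DESeq2 (FDR 0.026). Closure was not general in the intron. The highest distal TEAD1 site, 140248 bases from the start, measured 18.2 to 20.6 CPM in Control and 19.5 to 22.6 CPM in the combinations, with a log2 change of 0.12 ± 0.08 (FDR 0.35).

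The deposited annotation placed several of these sites in an intron of LOC102723893, a transcript that overlaps TEAD1, and the TEAD1 gene body of RefSeq held 20 further sites named for LINC00958. Of 19 of these that were tested, 5 closed and 0 opened (background 10.3% and 3.43%). Summed over the sites named for TEAD1, accessibility was 145 ± 9.69 CPM in Control (SD, n = 3), 124 ± 11.02 CPM with shARID1A/B.2.3 and 147 ± 2.78 CPM with shARID1A/B.4.2. The sums of shARID1A/B.2.3, from 111.7 to 132.3 CPM, lay below those of Control, from 134.2 to 152.0 CPM, whereas shARID1A/B.4.2 lay within the Control range.

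**Figure D2:**
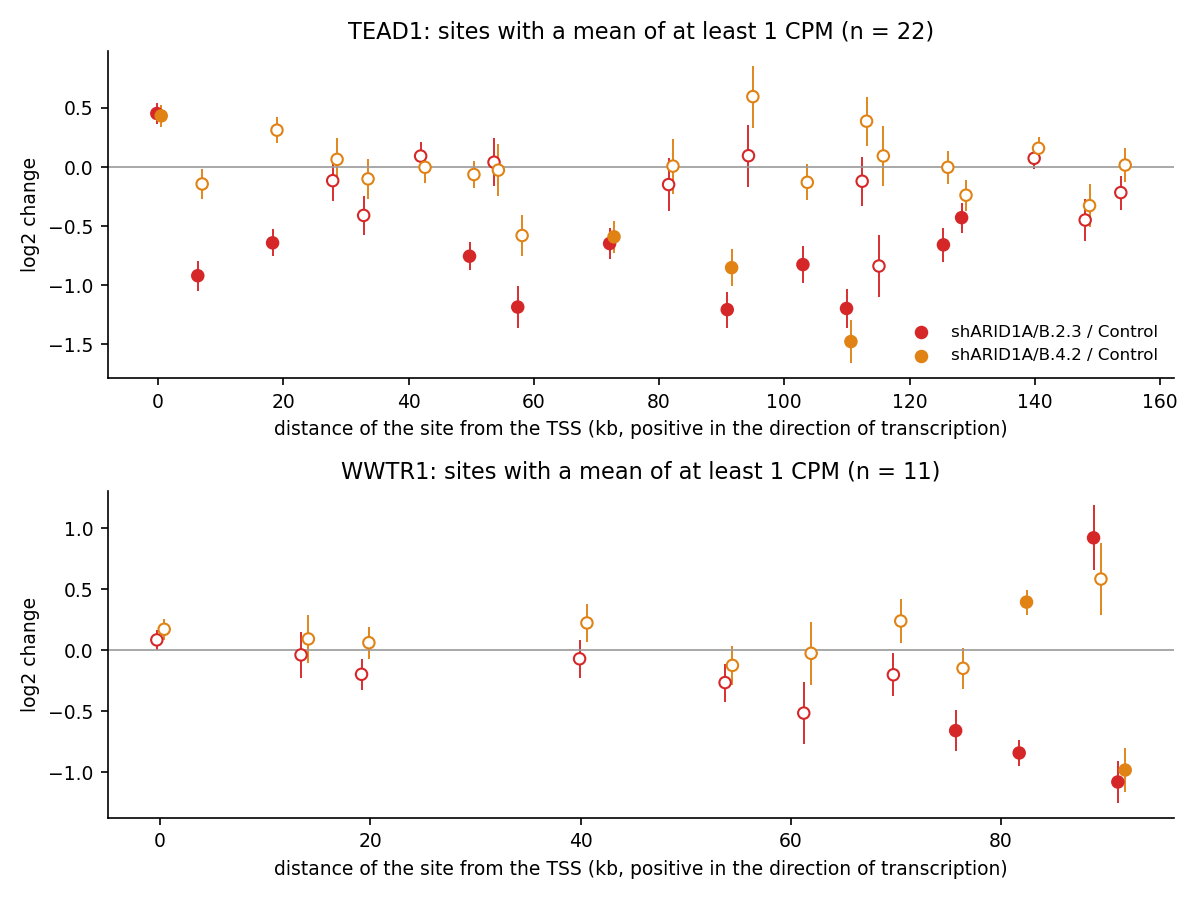
Log2 change of each combination over Control (y axis, with SE) against distance from the TSS in kb (x axis), for sites with a mean of at least 1 CPM, with 22 sites of TEAD1 above and 11 of WWTR1 below. Filled circles passed an FDR of 0.01. At TEAD1 the red points of shARID1A/B.2.3 run mostly below the orange points of shARID1A/B.4.2, and both fall at +110289. At WWTR1 the combinations part at +82072 and meet at +91456.

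The other TEAD genes had fewer closed sites, on fewer tested sites. TEAD4 closed at 1 of 23 tested sites, in intron 1 of 10 (chr12:2976479-2977902), which measured 4.43, 3.70 and 3.57 CPM in Control, 2.33, 1.77 and 2.51 CPM in shARID1A/B.2.3 libraries and 2.42, 1.93 and 2.27 CPM in shARID1A/B.4.2 libraries. All combination libraries lay below Control, with a log2 change of -0.83 ± 0.15 (FDR 3.1e-06). It also fell with ARID1A silencing (-0.59 ± 0.15, FDR 0.0024), a call lost without Control replicate 1 or shARID1A.2 replicate 2 (FDR 0.046 and 0.015) and by DESeq2 (FDR 0.013). The TEAD4 site with the highest mean, 117720 bases from its start, is annotated as the promoter of TSPAN9 and gave 0.18 ± 0.09 (FDR 0.16).

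The TEAD4 start site (chr12:2958190-2960810) separated the combinations. It measured 14.9, 11.8 and 15.8 CPM in Control, 14.2, 10.97 and 13.7 CPM in shARID1A/B.2.3 libraries, and 18.4, 19.7 and 20.3 CPM in shARID1A/B.4.2 libraries. The shARID1A/B.4.2 libraries stood above both other groups. The combinations differed by -0.60 ± 0.11 (shARID1A/B.2.3 over shARID1A/B.4.2, FDR 2.0e-05), and the rise of shARID1A/B.4.2 over Control was 0.46 ± 0.11 (FDR 0.00084). That rise was lost without Control replicate 2 (FDR 0.032) and under promoter scaling (FDR 0.28).

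TEAD3 had 5 sites, of which 1 closed, in intron 1 of 12 (chr6:35487803-35488545). It measured 4.91, 2.96 and 4.65 CPM in Control, 2.46, 1.77 and 2.15 CPM in shARID1A/B.2.3 libraries and 3.36, 2.81 and 3.34 CPM in shARID1A/B.4.2 libraries. Only shARID1A/B.2.3 lay wholly below Control, where Control replicate 2 was the lowest of its group. The log2 change was -0.69 ± 0.14 in the averaged comparison (FDR 4.7e-05), -0.98 ± 0.16 with shARID1A/B.2.3 (FDR 6.8e-07) and -0.39 ± 0.16 with shARID1A/B.4.2 (FDR 0.091). The TEAD3 start gave 0.23 ± 0.09 (FDR 0.077), and its highest distal site, 6006 bases from the start, held 6.12 to 9.86 CPM in Control and 6.83 to 9.72 CPM in the combinations (0.04 ± 0.11, FDR 0.85). The 1 site of TEAD2, in intron 9 of 9, held 0.247 to 0.561 CPM in Control and 0.302 to 0.881 CPM in the combinations, and gave 0.51 ± 0.32 (FDR 0.31).

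The YAP1 start was not called after combined silencing, whereas an intronic site closed in every comparison with Control. The start site (chr11:102109768-102112175, exon 1 of 9) measured 36.1, 34.6 and 34.96 CPM in Control, 32.8, 38.0 and 32.0 CPM in shARID1A/B.2.3 libraries, and 33.6, 33.3 and 32.3 CPM in shARID1A/B.4.2 libraries. The groups overlapped, and the log2 change was -0.06 ± 0.07 (FDR 0.62). Under promoter scaling it was -0.30 (FDR 0.00022), and with offsets that follow abundance -0.25 (FDR 0.00098), both past the threshold.

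The YAP1 site in intron 4 of 7, 77454 bases from the start (chr11:102186945-102188803), measured 7.94, 9.45 and 8.10 CPM in Control, 4.56, 4.86 and 4.53 CPM in shARID1A/B.2.3 libraries, and 6.14, 5.29 and 5.10 CPM in shARID1A/B.4.2 libraries. All 18 silenced libraries lay below all Control libraries. The log2 change was -0.75 ± 0.11 after combined silencing (FDR 1.1e-08), -0.46 ± 0.11 after ARID1A silencing (FDR 0.00080) and -0.67 ± 0.11 after ARID1B silencing (FDR 7.7e-07). The ARID1A call was lost without Control replicate 2 (FDR 0.028). The ARID1B shRNAs differed from each other here, with shARID1B.3 the lower. That call was lost without shARID1B.2 replicate 1 or 2 or shARID1B.3 replicate 1 (FDR 0.020 to 0.052). A neighbouring site at 80632 bases gave -0.50 ± 0.13 (FDR 0.0016), lost without Control replicate 2 or 3 or shARID1A/B.4.2 replicate 1 (FDR 0.024, 0.011 and 0.010) and with offsets that follow abundance (FDR 0.034). No other YAP1 site was called, and the median over all 47 was 0.17 on the log2 scale.

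WWTR1, which encodes the YAP1 paralogue, closed at 1 of 20 sites. In intron 3 of 6, 91456 bases from the start (chr3:149565711-149567579), accessibility was 3.61, 3.04 and 2.81 CPM in Control, 1.48, 1.56 and 1.36 CPM in shARID1A/B.2.3 libraries, and 1.39, 1.66 and 1.72 CPM in shARID1A/B.4.2 libraries. All combination libraries lay below Control, and the log2 change was -1.03 ± 0.15 (FDR 2.8e-08). ARID1A silencing gave -0.56 ± 0.15 (FDR 0.0046) and ARID1B silencing -0.53 ± 0.14 (FDR 0.0088). The first was lost without Control replicate 1 or 2, shARID1A.2 replicate 1 or shARID1A.4 replicate 2 (FDR 0.013 to 0.074), with offsets that follow abundance (FDR 0.010) and by DESeq2 (FDR 0.019). The second was lost in 8 of the 9 fits that left out 1 of its libraries (FDR up to 0.12), by DESeq2 (FDR 0.038), and with median-of-ratios scaling, offsets that follow abundance, no filter or only the compared groups (FDR 0.011 to 0.014).

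The WWTR1 start (chr3:149657060-149659059) measured 28.3, 26.1 and 27.6 CPM in Control and 27.9 to 31.9 CPM in the combinations, and gave 0.13 ± 0.08 (FDR 0.25). The WWTR1 gene body of RefSeq held 22 further sites that carried the names TM4SF4, WWTR1-AS1 or COMMD2. Of these, 7 closed and 0 opened (background 10.3% and 3.43%), beside the 1 closed site that carried the name of WWTR1. These counts were added after the data were seen.

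VGLL3 had no closed or opened site in the averaged comparison, with 38 tested. Its start measured 13.9, 14.6 and 13.7 CPM in Control and 13.1 to 16.4 CPM in the combinations (log2 change 0.04 ± 0.09, FDR 0.83). With shARID1A/B.2.3, 36 of 38 sites lay above 0, with a median of 0.41, where 54.4% of all tested sites did so with a median of 0.05, but 2 passed the test. Under promoter scaling, 30 of 38 lay above 0 and both calls were lost (FDR 0.020 at 21600 bases and 0.049 at 128060 bases). The first call was also lost without Control replicate 2 (FDR 0.015). The second was lost without Control replicate 1 or 3 (FDR 0.025 and 0.074) or shARID1A/B.2.3 replicate 2 (FDR 0.050), and by DESeq2 (FDR 0.019). Without shARID1A/B.2.3 replicate 2, 31 of 38 lay above 0 with a median of 0.195. In the summed accessibility, that library held 67.8 CPM, beside 55.5 and 55.6 CPM in the other shARID1A/B.2.3 libraries and 46.5 to 50.8 CPM in Control. YAP1 sites moved in the same way with that library, with 38 of 47 above 0 with it and 27 without it.

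Of the target genes, CTGF and CYR61 had no called change at their starts, and AMOTL2 likewise in the averaged comparison. The CTGF start (chr6:131949797-131951537), with the GGAATG letters shown for its promoter, measured 24.4, 27.7 and 25.01 CPM in Control, 22.3, 25.3 and 21.4 CPM in shARID1A/B.2.3 libraries, and 24.7, 24.3 and 21.9 CPM in shARID1A/B.4.2 libraries. The groups overlapped, with a log2 change of -0.14 ± 0.08 (FDR 0.24), but -0.37 (FDR 2.9e-05) under promoter scaling and -0.26 (FDR 0.0029) with offsets that follow abundance. An intergenic site 35748 bases beyond the start (chr6:131914936-131916325) opened, from 5.20, 6.08 and 4.93 CPM in Control to 8.44, 8.18 and 7.96 CPM in shARID1A/B.2.3 libraries and 6.77, 7.92 and 7.70 CPM in shARID1A/B.4.2 libraries. All combination libraries lay above Control, with 0.53 ± 0.11 (FDR 6.1e-05), but the call was lost under promoter scaling (0.30, FDR 0.034).

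CYR61 opened upstream and closed downstream. The site at -3578 bases from its start (chr1:85576319-85578047), inside intron 1 of DDAH1, measured 25.6, 26.8 and 23.9 CPM in Control, 31.6, 36.4 and 30.5 CPM in shARID1A/B.2.3 libraries, and 31.4, 31.5 and 30.7 CPM in shARID1A/B.4.2 libraries. The groups did not overlap (0.34 ± 0.08, FDR 0.00080), yet the call was lost without Control replicate 3 (FDR 0.023), under promoter scaling (0.10, FDR 0.38) and with offsets that follow abundance (0.18, FDR 0.058). The site 7787 bases beyond the start gave -0.63 ± 0.17 (FDR 0.0027), lost without Control replicate 3 or shARID1A/B.2.3 replicate 1 (FDR 0.077 and 0.011) and by DESeq2 (FDR 0.015). The start itself measured 17.0 to 21 CPM in Control and 18.1 to 22.7 CPM in the combinations (0.11 ± 0.08, FDR 0.40).

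The AMOTL2 promoter site (chr3:134373079-134375475) measured 31.6, 31.4 and 33.0 CPM in Control, 36.5, 33.8 and 36.1 CPM in shARID1A/B.2.3 libraries and 28.2, 29.7 and 33.0 CPM in shARID1A/B.4.2 libraries. The first combination lay above Control and the second overlapped it. The averaged change was 0.03 ± 0.08 (FDR 0.82), and its sign turned under promoter scaling (-0.20, FDR 0.0076). The highest distal AMOTL2 site, which is intergenic, held 0.945 to 1.40 CPM in Control and 1.01 to 1.61 CPM in the combinations (0.08 ± 0.21, FDR 0.86).

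**Figure D3:**
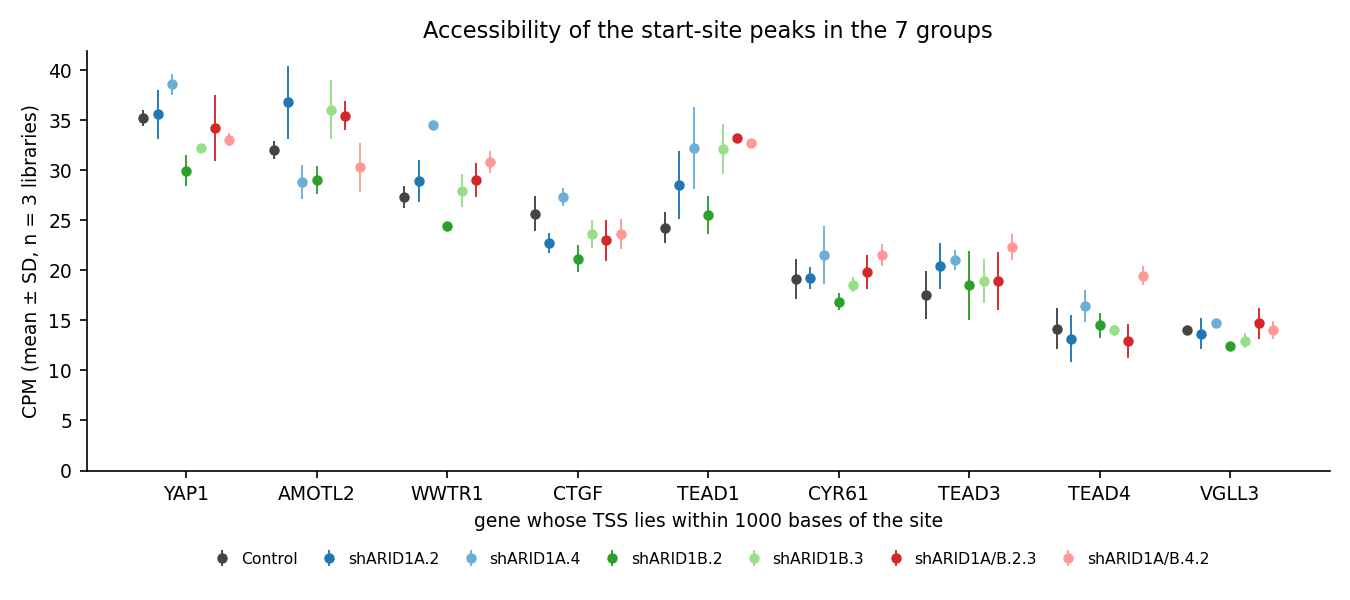
Accessibility in CPM (y axis, from 0) of the 9 sites within 1000 bases of a TSS, as mean ± SD of 3 libraries, for the 7 groups. Sites differ in length, so levels compare between groups of 1 gene only. The TEAD1 start is the only one called in the averaged comparison, with 32.6 to 33.3 CPM in the combinations above 22.8 to 25.8 CPM in Control.

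The combinations were next compared with each other and with Control one at a time. With shARID1A/B.2.3, 18 sites closed (8.74%, background 10.4%) and 6 opened (2.91%, background 2.85%). With shARID1A/B.4.2, 7 closed (3.40%, background 7.37%) and 4 opened (1.94%, background 3.97%). Of the 15 sites closed in the averaged comparison, 13 also closed with shARID1A/B.2.3 and 7 with shARID1A/B.4.2, comparisons that share the Control libraries. The combinations differed from each other at 8 sites, of which 7 were lower with shARID1A/B.2.3 (background 3.79%) and 1 was higher (background 1.43%). Those lower were 5 sites of TEAD1, the TEAD4 start and 1 site of WWTR1, and the 1 higher was in VGLL3.

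The widest difference was at WWTR1, 82072 bases from the start in intron 2 of 6 (chr3:149575423-149576635). It measured 14.2, 14.3 and 14.2 CPM in Control, 7.72, 7.83 and 8.31 CPM in shARID1A/B.2.3 libraries, and 17.9, 18.9 and 19.3 CPM in shARID1A/B.4.2 libraries. The combinations lay on opposite sides of Control without overlap, and their difference was -1.24 ± 0.11 (FDR 1.7e-16). The fall with shARID1A/B.2.3 was 0.84 ± 0.11 on the log2 scale (FDR 4.0e-10). The rise with shARID1A/B.4.2 was 0.40 ± 0.10 (FDR 0.0024), and this call was lost without Control replicate 1 or 3 or shARID1A/B.4.2 replicate 2 or 3 (FDR 0.011 to 0.019) under promoter scaling (FDR 0.63) and with offsets that follow abundance (FDR 0.013). Averaged, the combinations gave -0.22 ± 0.09 (FDR 0.074).

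The single shRNAs differed at this site as well. It measured 10.9, 9.91 and 8.22 CPM with shARID1A.2 and 17.8, 17.0 and 13.5 CPM with shARID1A.4. It measured 18.6, 18.1 and 17.6 CPM with shARID1B.2 and 10.9, 11.95 and 10.2 CPM with shARID1B.3. Both shRNAs whose numbers appear in the name of shARID1A/B.2.3 in the order of the genes, shARID1A.2 and shARID1B.3, lay below Control, and those of the other pair lay above it apart from 1 shARID1A.4 library at 13.5 CPM. The shRNAs of a gene differed by -0.74 ± 0.11 for ARID1A (shARID1A.2 over shARID1A.4, FDR 2.3e-07) and by -0.71 ± 0.10 for ARID1B (shARID1B.3 over shARID1B.2, FDR 7.2e-08). The averages for ARID1A and ARID1B, -0.18 ± 0.09 and -0.01 ± 0.09 (FDR 0.23 and 0.98), did not show these differences.

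A TEAD1 site 18632 bases from the start (chr11:12691566-12694542) was likewise lower with shARID1A/B.2.3, shARID1A.2 and shARID1B.3 than with the other member of each pair. It measured 10.4, 11.4 and 12.6 CPM in Control, 7.72, 6.23 and 8.49 CPM in shARID1A/B.2.3 libraries, and 14.8, 14.1 and 13.9 CPM in shARID1A/B.4.2 libraries. The single shRNAs gave 9.06 to 11.2 CPM (shARID1A.2), 14.4 to 16.2 CPM (shARID1A.4), 14.1 to 15.3 CPM (shARID1B.2) and 9.24 to 11.3 CPM (shARID1B.3). The differences were -0.95 ± 0.11 between the combinations (FDR 9.2e-11), -0.59 ± 0.11 between the ARID1A shRNAs (FDR 8.5e-05) and -0.50 ± 0.11 between the ARID1B shRNAs (FDR 0.00035). This site was chosen after its values were seen.

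Over the 206 sites, shARID1A.2 was lower than shARID1A.4 at 6 (background 1.84%) and higher at 2 (0.737%), and shARID1B.3 was lower than shARID1B.2 at 6 (4.25%) and higher at 8 (2.96%). Not all of these followed the combinations. At TEAD1, 6687 bases from the start, the ARID1A shRNAs differed by -1.07 ± 0.13 (FDR 5.3e-10) and the ARID1B shRNAs by 0.12 ± 0.12 (FDR 0.63). At 103323 bases, shARID1A.2 lay above shARID1A.4 by 0.71 ± 0.17 (FDR 0.0031) and shARID1B.3 below shARID1B.2 by 0.90 ± 0.14 (FDR 9.9e-07), but the first call was lost without either shARID1A.2 replicate 1 or 3 or any 1 of the shARID1A.4 libraries (FDR 0.018 to 0.032).

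In VGLL3, the site in intron 2 of 3, 21600 bases from the start (chr3:86968594-86970711), went the other way. It measured 4.14, 3.12 and 3.45 CPM in Control, 5.35, 5.16 and 5.36 CPM in shARID1A/B.2.3 libraries and 3.27, 2.90 and 3.43 CPM in shARID1A/B.4.2 libraries. Only shARID1A/B.2.3 stood above Control. The combinations differed by 0.72 ± 0.14 (FDR 9.7e-05) and the ARID1B shRNAs by 0.67 ± 0.15 (FDR 0.00048), the latter lost without shARID1B.2 replicate 2 or 3 (FDR 0.012 and 0.019). The ARID1A shRNAs gave 0.15 ± 0.15 (FDR 0.72).

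The AMOTL2 promoter was higher with shARID1A.2 (34.0 to 40.9 CPM) than with shARID1A.4 (27.0 to 30.4 CPM), by 0.35 ± 0.09 (FDR 0.0072), and higher with shARID1B.3 (33.0 to 38.8 CPM) than with shARID1B.2 (27.6 to 30.3 CPM), by 0.32 ± 0.09 (FDR 0.0076). The libraries of each pair did not overlap, but either call was lost in 5 of the 6 fits without 1 library. For ARID1A these were shARID1A.2 replicates 1 and 3 and all shARID1A.4 libraries (FDR 0.016 to 0.088), and for ARID1B all shARID1B.2 libraries and shARID1B.3 replicates 1 and 2 (FDR 0.014 to 0.089), with promoter scaling as well (FDR 0.028). The combinations gave 0.23 ± 0.09 (FDR 0.090).

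**Figure D4:**
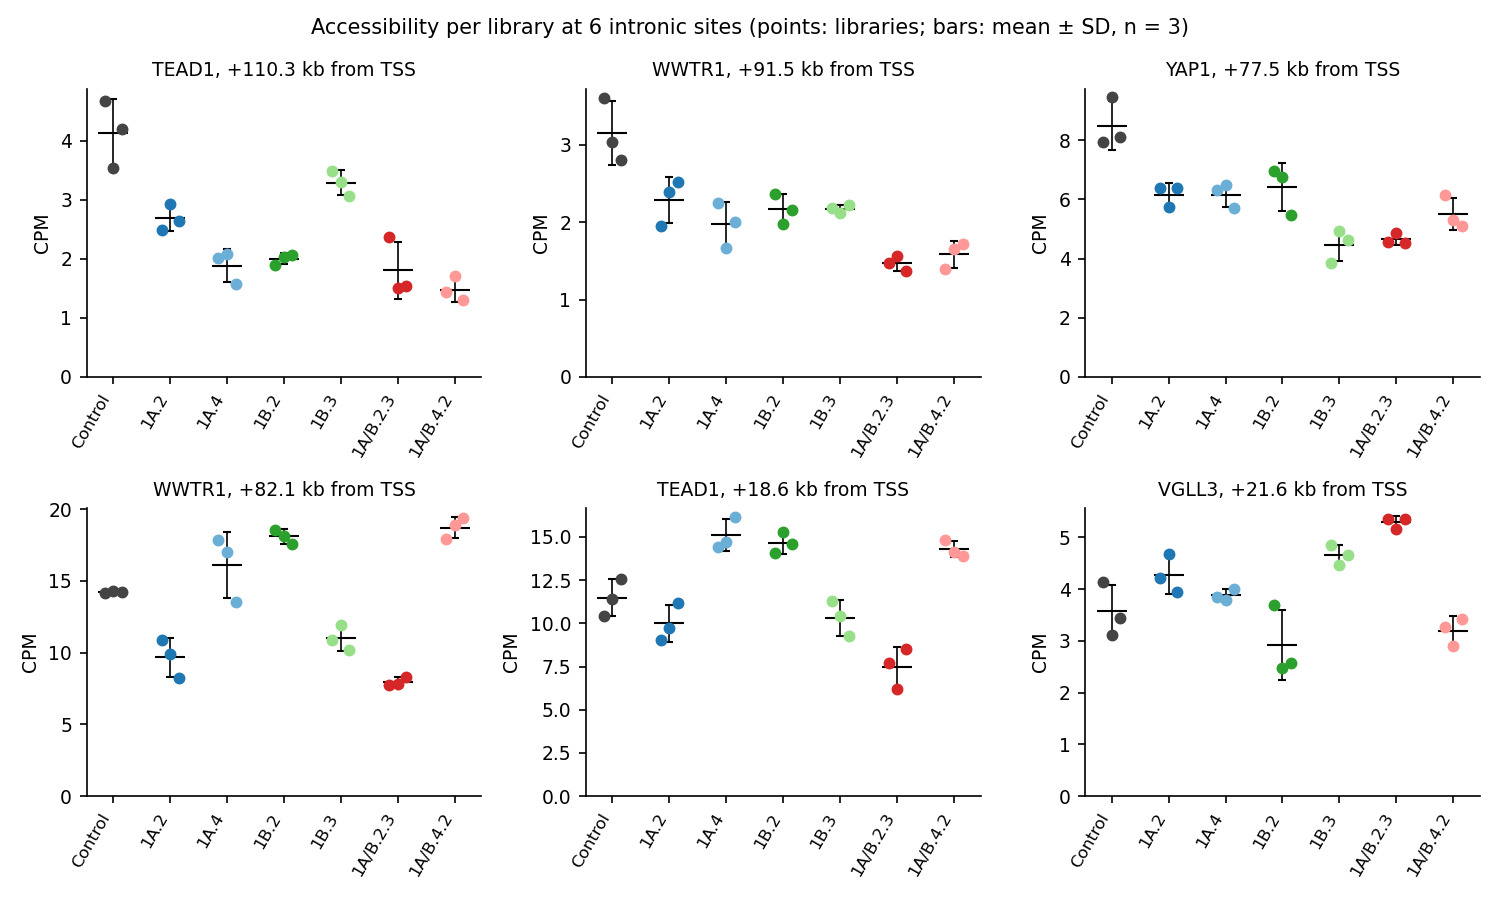
Accessibility in CPM (y axes, from 0) in each library (points) with mean ± SD of 3 libraries (bars) at 6 intronic sites, for Control, shARID1A.2, shARID1A.4, shARID1B.2, shARID1B.3, shARID1A/B.2.3 and shARID1A/B.4.2, with the prefix shARID shortened on the x axes. The upper sites fall with both combinations, and the lower sites separate them, with WWTR1 at 7.72 to 8.31 CPM against 17.9 to 19.3 CPM.

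Single silencing was then set against Control and against the combinations. ARID1A silencing closed 5 sites (2.43%, background 5.37%) and opened 2 (0.971%, background 1.67%), and ARID1B silencing closed 3 (1.46%, background 3.53%) and opened 0 (background 1.39%). With ARID1B, 13 sites were higher at an unadjusted edgeR p under 0.05, 4 at an FDR under 0.05 and 0 by DESeq2. All of these 5 and 3 closed sites, in TEAD1, TEAD4, YAP1 and WWTR1, were among the 15 of combined silencing. The opened sites were the TEAD1 start (0.32 ± 0.08, FDR 0.0025) and a WWTR1 site 89147 bases from its start (0.90 ± 0.25, FDR 0.0076). The first was lost without Control replicate 2 or 3 or replicate 1 of either ARID1A shRNA (FDR 0.012 to 0.037), under promoter scaling (FDR 0.16) and with offsets that follow abundance (FDR 0.050), and the second without any Control library, shARID1A.2 replicate 1 or 3 or shARID1A.4 replicate 2 (FDR 0.015 to 0.069), under promoter scaling (FDR 0.051) and by DESeq2 (FDR 0.022).

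Against the 4 single-silencing groups, the combinations were lower at 11 sites (5.34%, background 6.85%) and higher at 0 (background 0.969%). At an unadjusted edgeR p under 0.05, 16 sites were higher, 0 passed with DESeq2, and 2 passed with total counts as the scaling. Of the 11 sites, 9 belonged to TEAD1, and the others were the closed sites of TEAD3 and WWTR1. Those of TEAD1 included the site at 18632 bases, where shARID1A/B.2.3 lay below Control and shARID1A/B.4.2 above it. Its call was lost without shARID1A.2 replicate 3, shARID1B.3 replicate 1, shARID1A/B.2.3 replicate 2 or shARID1A/B.4.2 replicate 2 or 3 (FDR 0.011 to 0.056). The TEAD1 call at 72459 bases was lost with offsets that follow abundance (FDR 0.010). The TEAD3 site gave -0.60 ± 0.10 (FDR 2.7e-06) and the WWTR1 site -0.49 ± 0.12 (FDR 0.0014), the latter lost without shARID1A/B.4.2 replicate 1 (FDR 0.012). At the YAP1 site in intron 4 the difference was -0.18 ± 0.08 (FDR 0.14).

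The combined change was compared with that obtained by adding both single changes, and was lower at 2 TEAD1 sites (background 0.376%), and higher at 0 (background 0.14%, with 6 sites at an unadjusted edgeR p under 0.05 and 0 called by DESeq2). At 50084 bases from the start, accessibility was 11.4, 9.25 and 10.5 CPM in Control, 7.16, 5.39 and 5.98 CPM in shARID1A/B.2.3 libraries and 10.1, 9.62 and 10.02 CPM in shARID1A/B.4.2 libraries, while the single averages gave 0.03 ± 0.10 and 0.13 ± 0.10. The ARID1A average joined shRNAs that differed by -0.66 ± 0.12 (shARID1A.2 over shARID1A.4, FDR 2.1e-05). Only shARID1A/B.2.3 lay below Control, and the departure was -0.56 ± 0.13 (FDR 0.0067). At 125761 bases (chr11:12799441-12800926), libraries held 5.18 to 5.34 CPM in Control, 3.02 to 3.94 CPM with shARID1A/B.2.3 and 4.53 to 6.12 CPM with shARID1A/B.4.2, and the departure was -0.66 ± 0.15 (FDR 0.0090). Each call was lost in 16 of 21 fits without 1 library, with FDR up to 0.052 and 0.035. Both were lost under promoter scaling (FDR 0.012 and 0.036), and the second also with offsets that follow abundance (FDR 0.016) and by DESeq2 (FDR 0.011).

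ARID1A and ARID1B silencing differed from each other at 4 sites. The starts of YAP1 and WWTR1 were higher with ARID1A silencing (2 sites, background 1.05%), and 2 TEAD1 sites were lower (background 3.69%). At the YAP1 start, libraries held 33.2 to 38.1 CPM with shARID1A.2, 37.5 to 39.6 CPM with shARID1A.4, 28.5 to 31.6 CPM with shARID1B.2 and 32.0 to 32.4 CPM with shARID1B.3. All ARID1A libraries lay above all ARID1B libraries, and the difference was 0.26 ± 0.06 (FDR 0.0016). At the WWTR1 start it was 0.27 ± 0.06 (FDR 0.00085), with 27.3 to 34.8 CPM in ARID1A and 24.3 to 29.2 CPM in ARID1B libraries, which overlapped. The TEAD1 sites lay 128665 and 148397 bases from the start and gave -0.43 ± 0.09 (FDR 0.00037) and -0.55 ± 0.12 (FDR 0.00074). At the second, the ARID1A shRNAs themselves differed, by -1.14 ± 0.19 (FDR 5.0e-06).

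The regulators upstream of YAP1 were examined as a list of 22 Hippo pathway genes, which include the kinases STK3, STK4, LATS1 and LATS2 and the scaffolds SAV1, NF2 and WWC1. In the combined comparison, 39 of 404 tested sites closed (9.65%, background 10.3%) and 10 opened (2.48%, background 3.43%), with a median log2 change of -0.05. TAOK1 and RASSF1 had no site. The largest fall was in MAP4K4, which encodes a kinase that activates LATS1 and LATS2, where a site in intron 1 of 29 held 4.54 ± 0.46 CPM in Control (SD, n = 3) and 0.668 ± 0.12 and 0.793 ± 0.15 CPM in the combinations (log2 change -2.65 ± 0.16, FDR 5.5e-26). A site upstream of WWC1, which encodes the scaffold KIBRA, fell from 5.23 ± 0.27 to 1.02 ± 0.24 and 1.36 ± 0.05 CPM (-2.16 ± 0.14, FDR 1.1e-23). The largest rises were at FAT4, which encodes a protocadherin (1.41 ± 0.42, FDR 0.0092, at 0.181 CPM in Control), and at LATS2 (0.96 ± 0.25, FDR 0.0020).

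A list of 19 other genes known as YAP1 and TEAD targets, chosen with earlier results of these data known, closed at a larger share of sites than all tested sites. Of their 291 tested sites, 63 closed (21.6%, background 10.3%) and 7 opened (2.41%, background 3.43%), with a median log2 change of -0.21. With shARID1A/B.2.3, 61 closed (background 10.4%), with shARID1A/B.4.2 47 (7.37%), with ARID1A silencing 39 (5.37%) and with ARID1B silencing 26 (3.53%). GADD45A, a stress-response gene, closed at 11 of 17 sites, MYOF, which encodes a membrane repair protein, at 8 of 20, and ASAP1, which encodes a regulator of focal adhesions, at 14 of 82. The largest fall was upstream of CCDC80, which encodes a matrix protein, from 4.24 ± 0.44 to 0.935 ± 0.20 and 1.35 ± 0.25 CPM (-1.92 ± 0.15, FDR 6.7e-19). The second was in MYOF (-1.89 ± 0.26, FDR 4.6e-09). IGFBP3 and FOSL1 held the largest rises (0.81 ± 0.22, FDR 0.0039, and 0.77 ± 0.20, FDR 0.0014). Closed sites were found in 14 of the 19 genes, and CRIM1, F3, FOXF2, AJUBA and FOSL1 had none. The background closed share rose with level, from 3.77% under 1 CPM to 26.7% at 5 CPM or more, and the listed sites were not matched for level. Whether their share differs from that of the 10 genes was not tested.

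The genes whose summed accessibility followed TEAD1 most closely over the 21 libraries were VASH1, LINC00489 and PTCHD2 (Pearson's r on the log2 scale 0.958, 0.957 and 0.957, median over 14633 other genes 0.349). For YAP1 they were LOC101928535, LINC00276 and TRHR (0.915, 0.897 and 0.897, median -0.224). The 21 points fall into 7 groups and share depth and promoter content, so these values are descriptions.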

How the data were processed

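ATAC-seq libraries (21, in 7 groups of 3) came from SK-N-BE(2) cells. The authors deposited raw read counts per library over 367900 consensus sites of GRCh38, with normalized counts and DESeq2 comparisons (log2 ratios and adjusted p-values), which were not used here (36 columns of normalized counts), and an annotation of the nearest gene of each site, which need not be the gene that the site regulates. The steps before the counts (aligner, peak caller, any shift for the Tn5 cut) were not given in the sources used here. Filtering with filterByExpr (minimum count 10) kept 357029 sites and removed 10871. All libraries entered 1 edgeR quasi-likelihood model (edgeR 4.0.16, R 4.3.3) with TMM scaling, no covariate and Benjamini-Hochberg adjustment over all tested sites, with 14 residual degrees of freedom and a common biological coefficient of variation of 0.0817. Sites were called closed (lower) or opened (higher) at an FDR under 0.01. Accessibility is in CPM of the TMM-scaled library, changes are log2 ratios, and the SE is the change divided by the root of the F statistic. With TMM, a shift common to most sites is scaled away.

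Contrasts were the averaged combinations, each combination, ARID1A and ARID1B silencing (each the average of 2 shRNAs) against Control, the combinations against each other and against the 4 single-silencing groups, ARID1A against ARID1B silencing, and the departure of the averaged combinations from the sum of the single changes. Alternatives were DESeq2 1.42.0, other scalings (median of ratios, total counts, sites annotated as a promoter, offsets that follow abundance), no filter, a replicate block, only the compared groups, an FDR under 0.05, a log2 change of at least 1, sites within 100000 bases of the TSS, and leaving out each library. In the fits without 1 library, the sites and the trended dispersion of all libraries were kept and the quasi-likelihood dispersion was estimated again. Sequences were read from the GRCh38 reference genome, and promoters and gene bodies were taken from RefSeq (GRCh38.p14). A simulation of the combined comparison over 357029 sites recovered 100% and 80% of 50 sites each at log2 changes of -2 and -1, and 94% and 100% at 1 and 2. The changed sites were drawn only from those above a minimum of expected reads, and all sites were given the same biological spread. These rates therefore do not describe sites with fewer reads.

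The genes and lists were chosen with earlier results of these data known. Named by rule were, for each gene, the site nearest to the TSS, the highest site beyond 1000 bases, at most 3 sites called with a change of at least 1 in the averaged and both single-combination comparisons, and at most 2 sites called for departure. Other sites were named because a count or difference rested on them and were chosen after their values were seen. The comparisons between shRNAs of 1 gene, the count over gene bodies and the joint removal of Control replicate 2 and shARID1A/B.2.3 replicate 2 were added after seeing the data. Replicates of a group differed by a chi-square of 1.08 to 2.51 per degree of freedom over sites, and none was counted as a duplicate. Intervals of the test cover the spread between libraries of 1 cell line.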

Additional observations from a re-analysis of the deposited data

Results flagged for a closer look

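At 7 of the sites named by rule, a direct test found that groups under the same contrast differed (edgeR quasi-likelihood test, FDR under 0.01). The combinations differed at 5 of them, given as the log2 ratio of shARID1A/B.2.3 over shARID1A/B.4.2. The ratio was -1.237 at WWTR1 +82072 (FDR 1.7e-16), -0.691 at TEAD1 +50084 (FDR 5.8e-06), -0.596 at the TEAD4 start (FDR 2.0e-05), 0.721 at VGLL3 +21600 (FDR 9.7e-05) and -0.656 at TEAD1 +125761 (FDR 0.00052). The TEAD1 +125761 difference was lost without shARID1A/B.2.3 replicate 2 or shARID1A/B.4.2 replicate 3 (FDR 0.011 and 0.027), and under promoter scaling (FDR 0.018). ARID1A and ARID1B silencing differed at 2 of them, the starts of YAP1 (log2 ratio 0.255, FDR 0.0016) and WWTR1 (0.272, FDR 0.00085), where ARID1A silencing was the higher. The single shRNAs differed in the same direction as the combinations, for both genes, at WWTR1 +82072.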

How the results depend on the processing

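Counts are of closed and opened sites among the 206, and a percentage in brackets is the share of all tested sites under the same setting. With promoter scaling, the averaged combinations closed 30 (15.9%) and opened 1 (0.729%), shARID1A/B.2.3 opened 2 (1.10%), shARID1A/B.4.2 closed 25 (15.1%) and opened 0 (0.810%), ARID1A silencing closed 16 (9.55%) and opened 0 (0.336%), ARID1B silencing closed 9 (5.77%), the combinations against single silencing were lower at 18 (8.76%), shARID1A/B.2.3 was higher than shARID1A/B.4.2 at 4 (3.31%), the departure was lower at 0 (0.198%) and shARID1B.3 was higher than shARID1B.2 at 3 (1.79%). The AMOTL2 promoter turned to -0.202. With offsets that follow abundance, shARID1A/B.2.3 opened 11 (4.72%), shARID1A/B.4.2 opened 2 (3.50%), ARID1B silencing opened 1 (1.62%), the combinations against single silencing were higher at 3 (1.62%), shARID1A/B.2.3 over shARID1A/B.4.2 was higher at 4 (2.04%) and the departure was lower at 1 (0.359%). With total counts, the combinations against single silencing, and shARID1A/B.2.3 over shARID1A/B.4.2, were higher at 2 sites each (1.62% and 2.33%).

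At an FDR under 0.05, the averaged combinations opened 5 (6.24%), shARID1A/B.2.3 opened 14 (6.50%), shARID1A/B.4.2 opened 7 (6.23%), ARID1A silencing closed 11 (7.66%) and opened 4 (3.44%), ARID1B silencing closed 5 (5.31%) and opened 4 (2.98%), the combinations against single silencing were lower at 17 (9.39%) and higher at 4 (2.97%), and shARID1A/B.2.3 was lower than shARID1A/B.4.2 at 11 (6.16%) and higher at 3 (3.12%). With a log2 change of at least 1 as well, the averaged combinations closed 4 (4.46%) and opened 0 (0.252%), shARID1A/B.2.3 closed 4 (5.52%) and opened 0 (0.596%), shARID1A/B.4.2 closed 2 (3.78%) and opened 0 (0.454%), ARID1A silencing, ARID1B silencing, the combinations against single silencing, ARID1A against ARID1B silencing and the departure had 0 in either direction, shARID1A/B.2.3 was lower than shARID1A/B.4.2 at 1 (0.890%) and higher at 0 (0.504%), shARID1A.2 lower than shARID1A.4 at 2 (0.529%) and higher at 0 (0.252%), and shARID1B.3 lower than shARID1B.2 at 0 (1.67%) and higher at 2 (1.01%). The counts that follow have another base, all tested sites in the gene bodies, whatever their name. The closed counts there were 26 (averaged), 29 (shARID1A/B.2.3), 16 (shARID1A/B.4.2), 13 (ARID1A) and 9 (ARID1B, with 2 opened). The lower counts were 21 (combinations against single silencing), 5 (ARID1A against ARID1B) and 11 (shARID1B.3 against shARID1B.2). The share closed was not computed for this base. Of its sites with other names, combined silencing closed 5 of 19 tested in TEAD1 and 7 of 22 in WWTR1 (background 10.3%). Those in TEAD2, TEAD3, YAP1 and AMOTL2 held none closed.

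DESeq2 closed 3 with ARID1A silencing (4.08%) and gave a lower departure at 1 (0.337%). Without the filter, and with only the compared groups, ARID1A silencing opened 4 (2.14% in either setting). Within 100000 bases of the TSS, ARID1A against ARID1B silencing was lower at 0, the departure lower at 1 and shARID1A.2 higher than shARID1A.4 at 1. The share of all tested sites within that distance was not computed. Without Control replicate 2 and shARID1A/B.2.3 replicate 2, the averaged combinations closed 13 and opened 3, and shARID1A/B.2.3 closed 15 and opened 3. Over all 357029 tested sites, the same fit closed 33298 and opened 8640 for the averaged combinations, and closed 30082 and opened 5651 for shARID1A/B.2.3.

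Leaving out 1 library gave 11 to 16 closed and 2 to 3 opened sites for the averaged combinations, 15 to 21 and 3 to 8 for shARID1A/B.2.3, 5 to 8 and 2 to 4 for shARID1A/B.4.2, 4 to 6 and 0 to 3 for ARID1A, 2 to 3 and 0 to 1 for ARID1B, 10 to 13 and 0 to 1 for the combinations against single silencing, 2 and 2 for ARID1A against ARID1B, 5 to 8 and 1 for shARID1A/B.2.3 against shARID1A/B.4.2, 0 to 2 and 0 for the departure, 6 and 0 to 2 for the ARID1A shRNAs, and 4 to 6 and 1 to 8 for the ARID1B shRNAs. Counts moved by over 1.5 times without the following libraries. For shARID1A/B.2.3, opened sites fell to 3 without its replicate 2. For shARID1A/B.4.2, they fell to 2 without Control replicate 1 or 3 or its replicate 2 or 3. For ARID1A silencing, they fell to 0 without Control replicate 2 or 3 or shARID1A.2 replicate 1, and to 1 without Control replicate 1, shARID1A.2 replicate 3 or shARID1A.4 replicate 2. For ARID1B silencing, they rose to 1 without Control replicate 1, and for the combinations against single silencing, higher sites rose to 1 without shARID1A.2 replicate 1. The departure fell to 0 or 1 in 18 of 21 fits, beside 898 to 1468 lower and 319 to 534 higher over all tested sites. Over all tested sites, ARID1A against ARID1B had 10889 to 12906 lower and 2665 to 3818 higher. The combinations against each other had 8167 to 12902 lower and 3201 to 4770 higher. The ARID1A shRNAs had 4040 to 6232 and 1624 to 2137, and the ARID1B shRNAs 11338 to 12765 and 6289 to 10093. Sites higher with shARID1A.2 than shARID1A.4 fell to 0 without shARID1A.2 replicate 1 or 3 or any shARID1A.4 library, and sites higher with shARID1B.3 than shARID1B.2 fell to 1 and 2 without shARID1B.2 replicates 1 and 3, and to 3, 3 and 5 without shARID1B.3 replicates 1, 2 and 3.

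Replicate numbers did not pair the libraries as a whole. Over 63 pairs of same-numbered libraries the correlation of deviations ran from -0.16 to 0.305 (median 0.005), and 4 pairs exceeded 0.1. The highest joined Control replicate 2 and shARID1A/B.2.3 replicate 2. With these, shARID1A.2 replicate 2 gave 0.156 and 0.173, and shARID1B.2 replicate 2 gave -0.148 and -0.16. Whether some libraries numbered 2 shared a handling step was not tested. With the replicate block, the averaged combinations closed 15 (10.5%) and opened 3 (3.86%), and ARID1A silencing opened 4 (2.08%) in place of 2, the only count the block moved by over 1.5 times. The comparison limited to its own groups could not be fitted separately for the departure, which uses all groups. Of the changes at sites named by rule under all alternatives, 420 kept their direction and side of the threshold, 6 came to pass it, 5 no longer did and 1 reversed, all in the averaged comparison. Of the counts over the 206 sites and over the gene bodies, 109 moved by over 1.5 times and 379 did not. Of simulated falls of 1 on the log2 scale, 80% were recovered, at sites above a minimum of expected reads only. Of the 206 sites, 89 held under 1 CPM, where small changes may not be detected.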
